A study of Mus musculus with 6 samples.

Results

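The cells described here came from the ventral midbrain and were labelled conventional dendritic cells (cDC) without the genes of migratory dendritic cells. They were selected one by one on their own transcripts. A cell was a member if the major histocompatibility complex class II (MHC II) genes H2-Aa, H2-Ab1, H2-Eb1 and Cd74 made up at least 2% of its unique molecular identifiers (UMIs, counted transcripts) and if it held at least 2 UMIs over the dendritic cell genes Flt3, Zbtb46, Cd209a, Xcr1 and Clec9a. It could hold at most 2 UMIs over the migration genes Ccr7, Ccl22, Ccl17 and Fscn1, and at most 1 UMI over Pf4, Cd163, Cbr2, Lyve1 and Cd79a, which mark border macrophages and B cells. In all, 89 of 77105 cells met these limits, with 20 in the PBS library, 19 in the Monomer library, 28 in the PFF + VH library and 22 in the PFF + AZD1480 library.

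Single-cell RNA-seq was run on live CD45+ cells sorted from the ventral midbrain of perfused male Line 61 mice, which overexpress human wild-type alpha-Syn from the neuronal Thy1 promoter. Every group carried this transgene, so no library came from nontransgenic mice. Mice of 12 to 15 weeks received bilateral striatal injections of PBS, of alpha-Syn monomer, or of preformed alpha-Syn fibrils (PFF), and tissue was taken 6 weeks after the injection. From week 2, PFF-injected mice were gavaged daily for 4 weeks with vehicle (VH, diluted DMSO) or with AZD1480, an inhibitor of the kinases JAK1 and JAK2, at 25 mg/kg. A sample pooled 3 to 5 midbrains, and the design counts 3 PBS, 3 Monomer, 4 PFF + VH and 5 PFF + AZD1480 samples. Each condition was sequenced as 1 library, so condition and library cannot be told apart. The PFF + VH and PFF + AZD1480 libraries carried 4 and 5 antibody hashtags, the numbers of samples in the design. Each hashtag was taken as 1 sample, which the labels do not state, and the hashtags were the only replicates. The labels tie no hashtag to named animals, so p-values measure the spread between hashtags.

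Conventional dendritic cells take up antigen, cut it into peptides and show the peptides to T cells on MHC II. They arise from bone marrow precursors that need the receptor FLT3, and they are classed as cDC1, which carry XCR1 and CLEC9A, depend on IRF8 and BATF3 and present antigen on MHC class I well, and cDC2, a mixed class that includes cells with CD209A, CD301b (Mgl2) and IRF4. In the central nervous system they sit mainly in the meninges and choroid plexus, with few in the tissue itself, and after activation they switch on CCR7 and leave for lymph nodes. JAK1 and JAK2 transmit the signals of interferons and many cytokines, which act on MHC genes among others.

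The libraries held 14617 (PBS), 15031 (Monomer), 34436 (PFF + VH) and 13021 (PFF + AZD1480) cells after filtering. The PFF + VH library stood apart in depth, with a median of 2306 UMIs per cell against 6616 to 7028 in the other libraries. Pairs of libraries shared 45 to 151 cell barcodes, 0.346% to 1.03% of the smaller library. Among the members the median was 9121.5 UMIs with PBS, 8566 with Monomer, 3856.5 with PFF + VH and 8425.5 with PFF + AZD1480. Levels are given as CPM, the UMIs of a gene per 1e+06 UMIs of the summed members of a library or hashtag, on 118732 to 183269 UMIs per library.

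MHC II and the dendritic cell genes chose these cells, so their levels are given as a description only. On chromosome 17 (mm10), H2-Ab1 spans chr17:34257689-34269419, H2-Aa chr17:34282744-34287823 and H2-Eb1 chr17:34305867-34316674. These are the chains of the MHC II molecules A and E. The stretches of 250 bases before the starts of H2-Aa and H2-Eb1 are shown because both hold the letters GATTGG or their reverse complement CCAATC (in capitals), which is the core of the Y box of MHC II promoters. The sequences are those of RefSeq for GRCm38.p6, chr17:34287824-34288073 on the minus strand and chr17:34305617-34305866 on the plus strand.
H2-Aa: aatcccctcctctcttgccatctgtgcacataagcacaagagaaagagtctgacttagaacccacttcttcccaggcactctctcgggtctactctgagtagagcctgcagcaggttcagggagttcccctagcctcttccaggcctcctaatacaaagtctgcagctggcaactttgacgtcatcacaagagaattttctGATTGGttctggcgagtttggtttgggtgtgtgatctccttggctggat
H2-Eb1: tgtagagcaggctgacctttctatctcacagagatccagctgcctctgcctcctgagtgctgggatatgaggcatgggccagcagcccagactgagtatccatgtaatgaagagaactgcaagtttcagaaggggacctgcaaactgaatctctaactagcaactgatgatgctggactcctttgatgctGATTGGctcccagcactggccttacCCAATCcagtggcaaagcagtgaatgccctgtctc
The match before H2-Aa starts 49 bases before the transcript start, and H2-Eb1 has 2 matches. On either strand GATTGG occurred in 15.1% of 27025 mouse promoters of the same length, so a match is only a description. Of 10 genes looked up, 9 were matched (all but H2-Ab1), and 4 of them held GATTGG, as Xcr1 (190 bases before the start) and Irf8 (122 bases before it) did too.

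MHC II genes took a median of 5.52% of a member's UMIs with PBS (2.22% to 10.0%), 6.04% with Monomer (3.77% to 14.9%), 4.76% with PFF + VH (2.01% to 9.24%) and 5.52% with PFF + AZD1480 (2.53% to 7.83%). The ranges of all 4 libraries overlapped. H2-Aa stood at 10814 CPM with PBS, 13795 with Monomer, 9694 with PFF + VH and 12315 with PFF + AZD1480, and all other cells of the same libraries held 125 to 166 CPM. Cd74, the invariant chain that escorts MHC II, stood at 20625, 28436, 22092 and 23272 CPM in the same order, against 388 to 534 CPM in the other cells.

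Of the dendritic cell genes, Cd209a, a C-type lectin (chr8:3743397-3748984), was found in most members. It had UMIs in 65 of 89 members, with 830 CPM with PBS, 927 with Monomer, 783 with PFF + VH and 928 with PFF + AZD1480. Flt3, the cytokine receptor (chr5:147330741-147400489), had UMIs in 48 members, and Zbtb46, a transcription factor of the cDC lineage (chr2:181387762-181459426), in 28. Clec9a, a receptor for dead cells (chr6:129408862-129424763), had UMIs in 24 members, and Xcr1, a chemokine receptor (chr9:123852315-123862029), in 13. A single member held 46.6% of the Xcr1 UMIs. Among all other cells, at most 0.0866% had an Xcr1 UMI, 0.151% a Clec9a UMI, 0.915% a Cd209a UMI and 2.20% a Flt3 UMI in any library, where the median cell held 2306 to 7028 UMIs.

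The limits cut through a continuous range. Of the members, 15 had exactly 2 UMIs of the dendritic cell genes, and 52 cells that met the other limits had 1. In 7 members MHC II made up less than 2.5% of UMIs, and 10 cells that met the other limits lay between 1.5% and 2%. Of the members, 11 held 1 or 2 UMIs of the migration genes, and 5 cells were just outside with 3 or 4. The last step, on border macrophage and B cell genes, removed 9 cells with PBS, 5 with Monomer, 0 with PFF + VH and 9 with PFF + AZD1480.

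Markers that took no part in the selection were checked against the label. Ciita, the master regulator of MHC II transcription, stood at 257 CPM with PBS, 378 with Monomer, 143 with PFF + VH and 295 with PFF + AZD1480, against 2.69 to 3.36 CPM in the other cells. It is tied to the MHC II genes of the rule, so its level is no independent check of the label. Dpp4, the peptidase CD26 of dendritic cells, stood at 215, 196, 135 and 191 CPM against 0.784 to 1.47 CPM. Cbfa2t3, a corepressor of the cDC lineage, stood at 346, 404, 244 and 284 CPM against 34.8 to 44.3 CPM. Kmo, Jaml, Itgax (CD11c), Irf4 and Batf3 were also above the other cells in every library. Irf8 was not, at 328, 397, 320 and 480 CPM against 332 to 375 CPM in the other cells. These 9 markers, Ciita and Irf8 included, summed to 1398 to 1823 CPM in the members and 455 to 503 CPM in all other cells. With Ciita in it, the sum is no fully independent check either. It was 927 CPM in 24 migratory dendritic cells (over 2 UMIs of the migration genes). In 195 MHC II-high border macrophages (at least 3 UMIs of Pf4, Cd163, Cbr2 and Lyve1) it was 526 CPM. In 571 other MHC II-high cells, with under 2 UMIs of the dendritic cell genes, this sum was 675 CPM. Of the 12 markers of migratory dendritic cells, 4 are genes of the rule, which sets their level. The other 8 summed to 92.6 to 202 CPM in the members, 1705 CPM in the migratory cells and 414 to 699 CPM in all other cells, with Socs2, Nudt17 and Tnfrsf4 at 0 in all 89 members.

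Markers of other cell types were present to different degrees. The T and NK cell list summed to 0 to 12.6 CPM, with Cd3e, Trac, Nkg7, Ncr1 and Klrb1c at 0. The B cell list summed to 113 to 164 CPM, with Cd79a, which the rule limits, and Ebf1 at 0, against 175 to 212 CPM in all other cells. The 8 markers of plasmacytoid dendritic cells summed to 447 to 918 CPM, led by Bst2, Tcf4 and Siglech, with Ly6d, Klk1 and Cox6a2 at 0, against 1559 to 1731 CPM in all other cells. The monocyte list summed to 845 to 1426 CPM, of which the chemokine receptor Ccr2 gave a large part, and Chil3 was at 0. All other cells held 1254 to 1303 CPM of this list. The PBS and PFF + VH members were above them with 1426 and 1390 CPM. Without the 1 cell of each library that held more of these UMIs than any other member, they were below them, at 1019 and 1028 CPM. Border macrophage markers, 4 of which the rule limits, summed to 501, 751, 219 and 475 CPM in the order PBS, Monomer, PFF + VH and PFF + AZD1480, against 245, 199, 205 and 305 CPM in the other cells. Without its highest cell PFF + VH was at 173 CPM, below the other cells, and the other 3 libraries stayed above them. The 10 markers of microglia (MG) summed to 3109 CPM with PBS, 1400 with Monomer, 3655 with PFF + VH and 1959 with PFF + AZD1480, against 17446 to 20449 CPM in all other cells. Every member held at least 1 UMI of these MG genes, at 0.00745% to 1.66% of its UMIs with a median of 0.158%, and 7 members were over 1%.

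Members were rare in all conditions. The share was 0.137% with PBS (95% Clopper-Pearson interval 0.0836% to 0.211%), 0.126% with Monomer (0.0761% to 0.197%), 0.0813% with PFF + VH (0.0540% to 0.117%) and 0.169% with PFF + AZD1480 (0.106% to 0.256%). These intervals cover counting error only, and all of them overlap, which does not show that the shares were equal. In PFF + VH, 12855 cells had no hashtag call, with a median of 1346 UMIs, and 0 members were among them. In PFF + AZD1480 such cells numbered 835, also with 0 members. With every cell thinned to 2000 UMIs, the shares were 0.108%, 0.108%, 0.0969% and 0.131% in the same order, with 14819 PFF + VH cells and 1551 to 2098 cells of the other libraries left out as too shallow. Thinned to 1000 UMIs, with 5480 and 498 to 1030 cells left out, they were 0.0720%, 0.0714%, 0.0518% and 0.0958%. PFF + VH had the lowest share at each depth, and the intervals overlapped.

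By hashtag, the PFF + VH cDC were 9 of 4512, 7 of 3770, 6 of 4246 and 2 of 5365 cells, which is 0.199%, 0.186%, 0.141% and 0.0373%. The PFF + AZD1480 cDC were 0 of 2371, 4 of 2485, 0 of 1403, 9 of 2961 and 3 of 1332 cells. The latter shares were 0.161%, 0.304% and 0.225% where cDC were found, and 0 cells, with a limit of 3 counts, allow shares of up to 0.127% and 0.214% in the other hashtags. The point values of AZD1480 hashtags 4 and 5 lay above the VH range of 0.0373% to 0.199%. Their Clopper-Pearson intervals (0.139% to 0.576% and 0.0465% to 0.657%) reached into that range, so neither is shown to lie above it. The AZD1480 hashtags with 0 cells are likewise not shown to lie below it. The means were 0.138% ± 0.136 (SD, n = 5) with AZD1480 and 0.141% ± 0.0734 (SD, n = 4) with VH. A two-sided exact permutation test over 126 splits gave p = 1, where the smallest p possible was 0.0159. The median cell of a hashtag held 2538 to 3267 UMIs in PFF + VH and 6182.5 to 7121 in PFF + AZD1480.

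**Figure D1:**
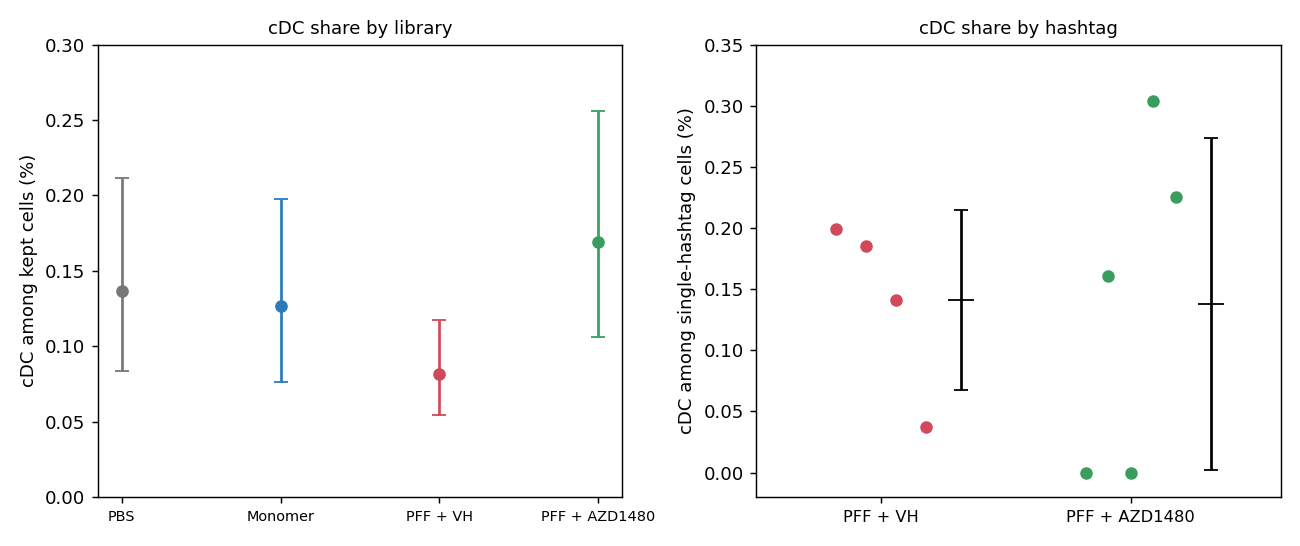
Share of cells that were cDC without migratory genes, in percent of kept cells, for the 4 libraries (points with 95% Clopper-Pearson intervals) and for the hashtags of both fibril groups (4 with VH, 5 with AZD1480). The intervals of the libraries overlap. The AZD1480 hashtags spread from 0 to 0.304% and the VH hashtags from 0.0373% to 0.199%. The AZD1480 hashtags with 0 cells allow shares of up to 0.127% and 0.214%.

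Some of the members carried more than 1 hashtag, as cells captured together can. By HTODemux, which made the hashtag calls used here, 24 of 28 PFF + VH members had 1 hashtag, 4 had more and 0 had none, and 37.3% of all kept cells of that library had none. By MULTIseqDemux, a stricter caller for this library, 12 of the 28 had 1 hashtag, 6 had more and 10 had none, against 72.1% of all kept cells with none. All 9 members of VH hashtag 1 were among those 10. In PFF + AZD1480, 16 of 22 members had 1 hashtag and 6 had more by HTODemux. The number with more was 2 with hashtag values centred within cells and 3 by MULTIseqDemux, so these counts depend on the caller. By HTODemux, members with more than 1 hashtag held more MG transcripts, at 8403 CPM against 2782 CPM in PFF + VH and at 4149 CPM against 973 CPM in PFF + AZD1480. The hashtag comparisons used only members with 1 hashtag, and the library values used all members.

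Outside the selected genes, Plbd1, Crip1, Tnip3 and Ccr2 led the ranking of members against all other cells, in which MG markers were high. The 15 genes named were those with the largest smallest ratio to the other cells over the 4 libraries and at least 100 CPM in each, and the ratios are a description of cells that were picked on other genes. Ccr2, the receptor that brings bone marrow-derived cells into tissue, stood at 656 CPM with PBS, 561 with Monomer, 514 with PFF + VH and 622 with PFF + AZD1480, against 9.32 to 10.8 CPM in the other cells. In the 571 MHC II-high cells with under 2 UMIs of the dendritic cell genes it stood at 426 CPM. It had UMIs in 73 of 89 members. Plbd1, a phospholipase B-like protein, stood at 656, 612, 674 and 584 CPM against 3.96 to 6.93 CPM and had UMIs in 77 members. Both genes were within a narrow range over the 4 conditions. Crip1, a LIM domain protein, stood at 1146, 1072, 1246 and 1271 CPM against 13.5 to 26.4 CPM.

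Tnip3, which binds the NF-kB inhibitor A20, differed more between libraries, at 925 CPM with PBS, 908 with Monomer, 514 with PFF + VH and 698 with PFF + AZD1480, with 2.69 to 8.38 CPM in the other cells. Mgl2, the lectin CD301b of cDC2, stood at 788, 1394, 278 and 873 CPM against 5.16 to 12 CPM. Its lowest value was in the PFF + VH library. The lectin Clec4b1, by contrast, stood at 263, 271, 278 and 262 CPM against 1.26 to 2.25 CPM. The S100 calcium-binding proteins S100a4, S100a6 and S100a11, the intermediate filament Vim, the scaffold Ahnak, the adhesion molecule Alcam and the aspartic protease Napsa completed the group together with Olfm1 and Gm20513. Gm20513 (chr17:34293073-34308070, minus strand) overlaps H2-Eb1 on the opposite strand, so its reads may belong to a gene of the rule.

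**Figure D2:**
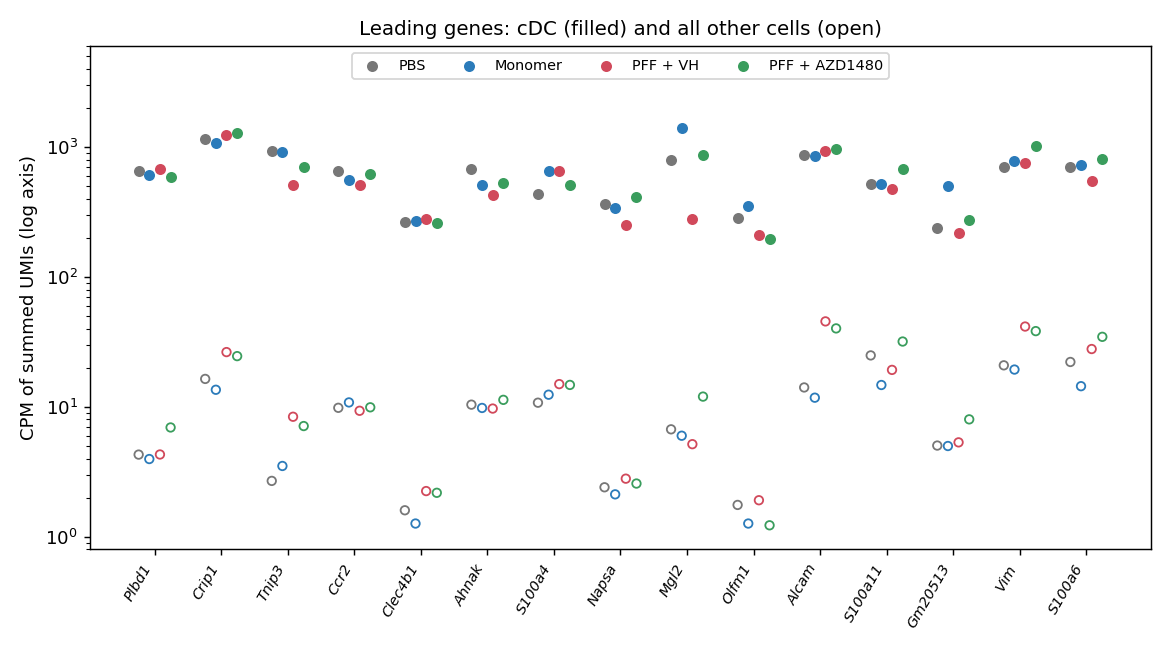
Levels in CPM on a log axis of the 15 leading genes outside the rule, with a point per library for the cDC and for all other kept cells. In every library each gene stood above the other cells, and Plbd1, Ccr2 and Clec4b1 were at nearly the same level in all 4 libraries.

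The members fell into cells with Cd209a and cells with Xcr1 or Clec9a. Cd209a alone was found in 59 of 89 members (66.3%), Xcr1 or Clec9a alone in 19 (21.3%), both kinds in 6 and neither in 5. Of the 59 cells with Cd209a and no Xcr1 or Clec9a, 26 had a Flt3 UMI, 13 a Zbtb46 UMI and 48 a Ccr2 UMI. Some of them thus met the rule on Cd209a with no other dendritic cell gene. The numbers with Cd209a alone were 15 with PBS, 11 with Monomer, 18 with PFF + VH and 15 with PFF + AZD1480, and those with Xcr1 or Clec9a alone were 3, 4, 8 and 4. Cells with Xcr1 or Clec9a alone were deeper, with a median of 8566 UMIs against 6240. MHC II made up a median of 4.13% of their UMIs against 6.04% in the Cd209a cells.

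Genes that took no part in the split followed it cell by cell. The 12 genes of the cDC1 list, all outside the rule, took 0.0467% to 1.02% of the UMIs of an Xcr1 or Clec9a cell (median 0.479%) and 0% to 0.199% of a Cd209a cell (median 0.0654%). The 12 genes of the cDC2 list took 0.0576% to 0.467% of an Xcr1 or Clec9a cell (median 0.142%) and 0.0936% to 1.01% of a Cd209a cell (median 0.337%). The cDC1 list outweighed the cDC2 list in 17 of the 19 Xcr1 or Clec9a cells and in 0 of the 59 Cd209a cells. It outweighed the cDC2 list in 0 of the 6 cells with both kinds of transcript and in 1 of the 5 with neither.

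**Figure D3:**
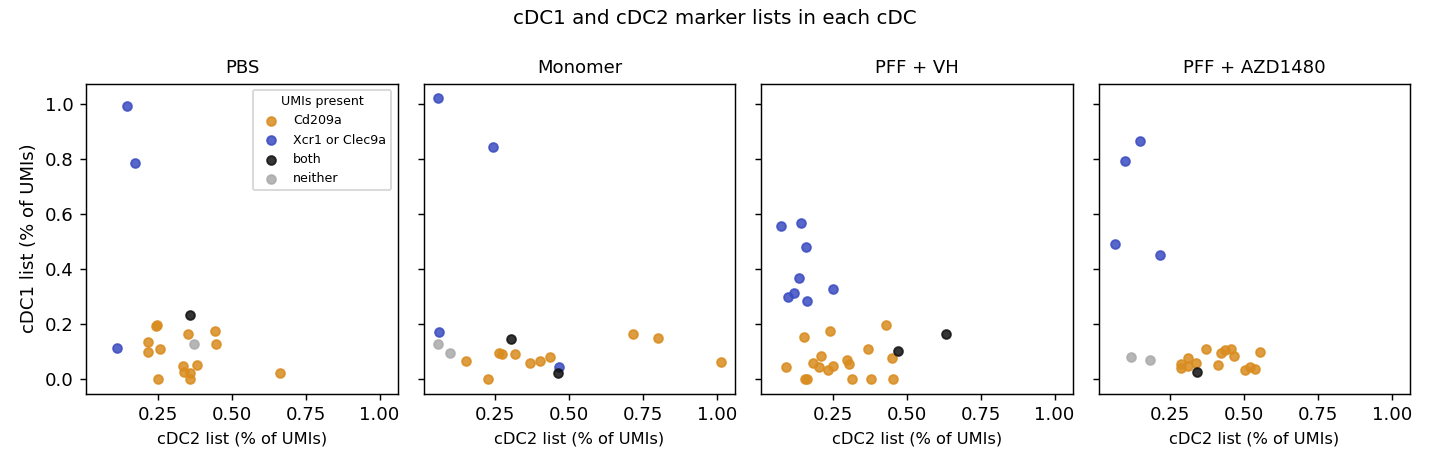
Each point is 1 of the 89 cDC, placed by the percent of its UMIs from the 12 cDC1 genes and from the 12 cDC2 genes, and marked by whether it held UMIs of Cd209a, of Xcr1 or Clec9a, of both or of neither. The cells with Xcr1 or Clec9a alone spread along the cDC1 axis up to 1.02%, and the Cd209a cells stay at or below 0.199% on it.

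Irf8, the transcription factor that cDC1 depend on, had the largest smallest ratio between the sets over the 4 libraries. In PBS, Monomer, PFF + VH and PFF + AZD1480 it stood at 1613, 1439, 709 and 1512 CPM in the Xcr1 or Clec9a cells and at 78.7, 57.6, 51.4 and 72.6 CPM in the Cd209a cells. It had UMIs in 17 of the 19 former and 14 of the 59 latter cells. MG express Irf8 too, and 51.9% to 78.3% of all other cells had an Irf8 UMI. Irf8 lies at chr8:120736358-120756694, and the 250 bases before its start (RefSeq, GRCm38.p6, chr8:120736108-120736357, plus strand) are shown because they hold 2 matches to TTCNNNGAA (in capitals), the letters of the sites that STAT proteins bind below the JAK kinases.
Irf8: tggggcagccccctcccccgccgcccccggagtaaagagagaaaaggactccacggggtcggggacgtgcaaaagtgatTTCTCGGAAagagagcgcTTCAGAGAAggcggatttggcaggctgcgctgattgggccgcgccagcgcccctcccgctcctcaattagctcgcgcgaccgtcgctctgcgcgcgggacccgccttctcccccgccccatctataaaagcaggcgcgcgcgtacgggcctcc
They do not overlap a GATTGG match, and the same letters, searched on both strands, occurred in 7.18% of the 27025 promoters, and a match says nothing of binding in these cells.

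Of 10 cDC1 genes that could be compared, 9 were higher in the Xcr1 or Clec9a cells than in the Cd209a cells in all 4 libraries, namely Wdfy4, Irf8, Naaa, Cadm1, Itgae, Ifi205, Cd24a, Ppt1 and Id2. Over all 1926 genes compared, 10.2% were higher in all 4 libraries and 14.8% were lower, and these ratios carry no test because the cells were split on their own transcripts. Naaa, a lysosomal lipid hydrolase, stood at 1393, 759, 709 and 787 CPM in the Xcr1 or Clec9a cells against 289, 196, 137 and 154 CPM in the Cd209a cells. Cadm1, an adhesion molecule, stood at 697, 340, 709 and 269 CPM against 78.7, 80.7, 51.4 and 81.6 CPM. The libraries did not overlap for either gene.

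Over the libraries summed, Wdfy4, which cross-presentation requires, stood at 1159 CPM in the Xcr1 or Clec9a cells against 206 CPM. Itgae, the integrin chain CD103, stood at 172 against 2.71 CPM, and Tlr3, a receptor for double-stranded RNA, at 153 against 2.71 CPM. The Tlr3 UMIs lay in 8 of the 19 and in 1 of the 59 cells, and PFF + VH had 0 Tlr3 UMIs in either set. Batf3, the partner of IRF8, stood at 92.0 against 78.5 CPM and did not separate the sets. Further genes that separated them in every library were the endosomal GTPase Rab7b, at 293, 392, 365 and 290 CPM against 0, 0, 0 and 27.2 CPM, together with Sept3, Mllt3, Cd36, Fmnl2 and AW112010.

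Of 10 cDC2 genes compared, 7 were lower in the Xcr1 or Clec9a cells in all 4 libraries (Clec10a, Mgl2, Itgam, Irf4, Klf4, Tnfsf9 and Clec4a2), and Plbd1 was higher. Over all genes compared, 14.8% were lower and 10.2% higher. Mgl2 stood at 910, 2191, 377 and 1333 CPM in the Cd209a cells and at 36.7, 706, 0 and 0 CPM in the Xcr1 or Clec9a cells. It had UMIs in 47 of the 59 and in 2 of the 19 cells. Tnfsf9, the ligand of the T cell receptor 4-1BB, stood at 306, 415, 274 and 517 CPM against 36.7, 0, 0 and 62.1 CPM. Irf4, the transcription factor of cDC2, had UMIs in 25 of the 59 and 3 of the 19 cells. S100a4 stood at 612, 922, 1166 and 744 CPM in the Cd209a cells against 0, 78.5, 0 and 0 CPM, so this gene, among the leading genes of all members, was found mainly in the Cd209a cells. S100a6, Mcemp1, Bhlhe40, Capg, Prkce, Dusp2 and Chn2 were arranged likewise.

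**Figure D4:**
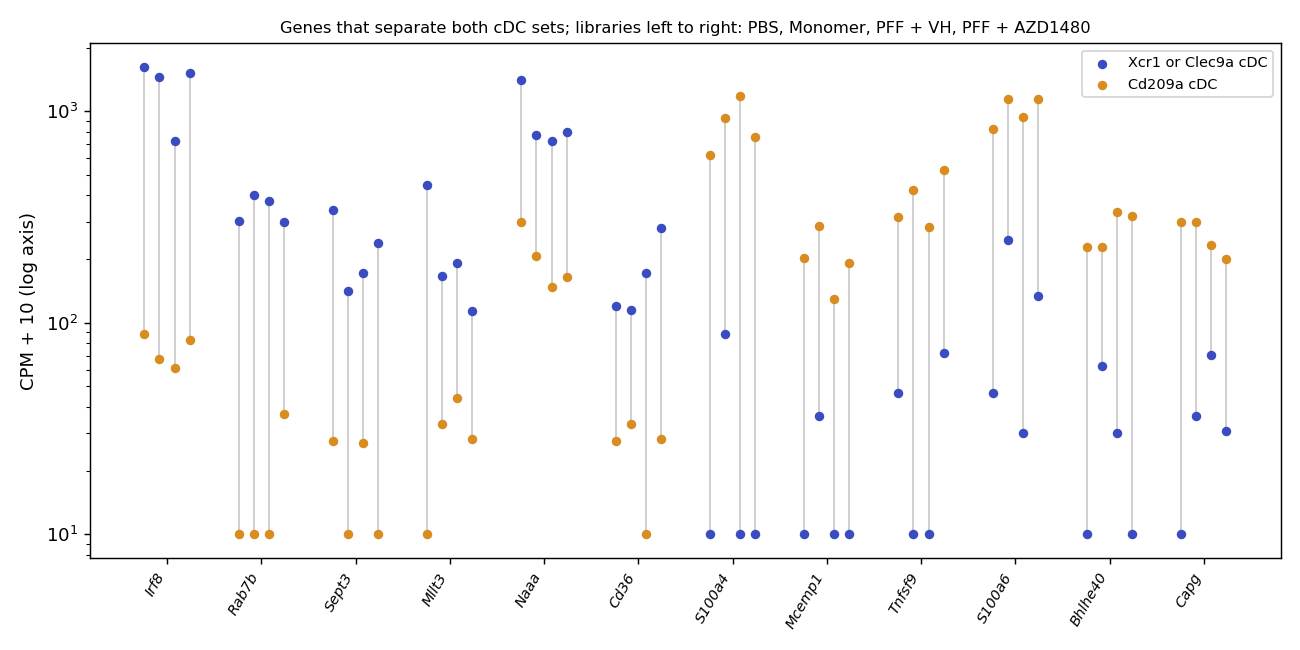
CPM + 10 on a log axis of the 6 genes in each direction that differed most between cDC with Xcr1 or Clec9a and cDC with Cd209a, with a point per library and set. For Irf8, the Xcr1 or Clec9a cells lie between 709 and 1613 CPM and the Cd209a cells between 51.4 and 78.7 CPM, and S100a4 is arranged the other way around.

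Antigen presentation genes outside the rule were compared by MHC class. Of 9 MHC class I and peptide loading genes compared, 5 were higher in the Xcr1 or Clec9a cells in all 4 libraries (the peptide transporters Tap1 and Tap2, the loading chaperone Tapbp, and the immunoproteasome subunits Psmb8 and Psmb9), and none was lower in all 4. Over all genes compared, 10.2% were higher in all 4 libraries and 14.8% lower. The median log2 ratio of the 9 was 0.64, against -0.06 over all genes compared. Psmb9 stood at 293, 392, 365 and 559 CPM against 114, 173, 154 and 99.8 CPM. Of 8 MHC II pathway genes outside the rule, 3 were lower in all 4 libraries, where 14.8% of all genes were, and their median log2 ratio was -0.20. The 3 genes were H2-DMb2, the lysosomal protease Ctss and the thiol reductase Ifi30. In the members as a whole the peptide exchange chains H2-DMa and H2-DMb1 were above the other cells in every library (H2-DMa 817 to 1098 CPM against 227 to 265 CPM). Ctss was below them, at 1413 to 2215 CPM against 4881 to 6044 CPM.

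The other transcription factors, receptors and cytokines were counted the same way, against 10.2% of all genes higher and 14.8% lower in all 4 libraries. Of 12 cDC transcription factors compared, Irf8, Id2 and Notch2 were higher in the Xcr1 or Clec9a cells in all 4 libraries, and Irf4, Zeb2, Klf4, Bcl6 and Runx3 were lower. Id2, an inhibitor of E proteins, stood at 595 CPM over all libraries against 78.5 CPM. Of 6 costimulation genes, Cd86 and Havcr2 (TIM-3) were higher and Cd80 and Tnfsf9 lower. Cd86, the ligand of CD28, stood at 840 against 395 CPM. Of 10 uptake and innate receptor genes, the scavenger receptor Cd36, Itgae and Cadm1 were higher, and Clec10a, Clec4a2 and Itgam were lower.

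Of 10 cytokine genes compared, Cxcl16 was higher in the Xcr1 or Clec9a cells in all 4 libraries and Tgfb1, Ccl3, Ccl2, Ccl6 and Ccl9 were lower. Their median log2 ratio was -1.17. Ccl2, which attracts CCR2-bearing cells, stood at 24.5 CPM in the Xcr1 or Clec9a cells against 503 CPM. Il1b, an inflammatory cytokine, was at 73.3, 2014, 1662 and 166 CPM in the Xcr1 or Clec9a cells against 1119, 1937, 2451 and 3828 CPM in the Cd209a cells, so the libraries overlapped. Of 15 JAK/STAT genes, Ifngr2, a chain of the interferon-gamma receptor, was higher in all 4 libraries, and Jak1, Socs3, Il6ra, Csf2ra and Il10rb were lower. Of 8 interferon-stimulated genes, Ly6e was higher and Irf1 lower, which is near the shares over all genes (10.2% and 14.8%). Of 16 immediate early and heat shock genes, 0 were higher and Junb, Ier3, Zfp36 and Nr4a1 were lower. The MG list, of which 7 genes could be compared, had 0 genes on the same side in all 4 libraries. Of the border macrophage list, 2 genes could be compared, and both (Mrc1 and F13a1) were lower in all 4 libraries. This list stood at 116 CPM in the Xcr1 or Clec9a cells against 636 CPM in the Cd209a cells. Mrc1 had UMIs in 4 of the 19 former and 39 of the 59 latter cells. The part of these transcripts in the split was not tested.

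Hashtags differed widely in the makeup of their cDC. In PFF + VH, 6 of 7 cDC of hashtag 2 had Xcr1 or Clec9a UMIs (85.7%), against 0 of 9 in hashtag 1, 1 of 6 in hashtag 3 and 0 of 2 in hashtag 4. In PFF + AZD1480 they were 1 of 4 in hashtag 2, 2 of 9 in hashtag 4 and 0 of 3 in hashtag 5. A single hashtag thus held nearly all the cells of this kind in PFF + VH with a hashtag of their own. Over hashtags with at least 3 cDC, the share was 15.7% ± 13.7 with AZD1480 and 34.1% ± 45.4 with VH (SD, n = 3 each). No test is given, since Xcr1 and Clec9a are genes of the rule and 3 hashtags against 3 cannot reach a p below 0.1. The difference of -18.4 percentage points became 7.41 without hashtag 2 of PFF + VH. At the library level, any Xcr1 or Clec9a UMI was found in 20% of PBS members (5.73% to 43.7%, Clopper-Pearson), 31.6% of Monomer (12.6% to 56.6%), 35.7% of PFF + VH (18.6% to 55.9%) and 22.7% of PFF + AZD1480 members (7.82% to 45.4%).

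Between conditions, values from 19 to 28 cells of 1 library each were compared without a test. Genes were counted where they differed at least 2-fold and reached 100 CPM in either library. With so few cells, a gene's value could rest on 1 cell, so each difference was also computed without the cell with the highest number of UMIs of the gene in the higher library. A gene is said to keep the difference where it stayed past 2-fold, and a gene that lost it could still differ by less. From PBS to Monomer, the question was what alpha-Syn protein without fibrils does. Of 1937 genes, 4.18% were higher and 6.04% lower in Monomer. Of 16 listed genes past 2-fold, 7 stayed past it without the highest cell.

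Of 16 immediate early and heat shock genes, 0 were higher in Monomer and 4 were lower, the chaperones Hspa1a, Hspa1b and Hsp90aa1 and the cochaperone Dnajb1. Hspa1a stood at 985 CPM in PBS and at 196, 202 and 196 CPM in Monomer, PFF + VH and PFF + AZD1480, so PBS stood alone. Hspa1a and Hspa1b kept the difference without the highest cell. Dnajb1 and Hsp90aa1 fell under 2-fold, with log2 ratios of -0.70 and -0.92, and 1 PBS cell held 63.4% of the Dnajb1 UMIs of that library. Il1b was at 1396 CPM in PBS and 3015 CPM in Monomer, which became 2282 CPM without 1 cell and was then less than 2-fold apart. Tnf (53.7 and 145 CPM), Ly6e and Nav3 also fell under 2-fold without 1 cell, with log2 ratios of 0.90, -0.39 and -0.51. The 4 MHC II genes had a median log2 ratio of 0.41, and none passed 2-fold. Of 6 MG genes compared, 3 were lower in Monomer with and without the highest cell (P2ry12, Sparc and Olfml3), and the part of MG transcripts in the other values was not tested.

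From Monomer to PFF + VH, fibrils and vehicle cannot be told apart, since the labels name vehicle for the fibril group only. Here 8.35% of 1987 genes were higher and 5.89% lower. Of 27 listed genes past 2-fold, 19 stayed past it without the highest cell. Of 7 MG genes, 5 were higher in PFF + VH (P2ry12, Sparc, Siglech, Gpr34 and Olfml3), and the members of that library were shallower. Of these, Gpr34 alone fell under 2-fold without its highest cell, from a log2 ratio of 1.02 to 0.77. Of the border macrophage markers, both genes compared (Mrc1 and Ms4a7) were lower, and the list went from 751 CPM to 219 CPM. The part of these differences in the other values was not tested.

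Of 13 JAK/STAT genes, the transcription factor Stat4 was higher (31.5 CPM to 135 CPM) and the receptor chain Il10rb lower (107 CPM to 25.3 CPM) in PFF + VH, both with and without the highest cell. Both rested on few counts, 5 UMIs to 16 UMIs for Stat4 and 17 UMIs to 3 UMIs for Il10rb. Jak2 was also past 2-fold higher, but under it without its highest cell (log2 ratio 1.10 to 0.78). The list thus had 2 genes higher and 1 lower of 13, where 8.35% and 5.89% of all genes were. Of 4 interferon-stimulated genes compared, Ifi27l2a (259 CPM to 674 CPM) and Ly6e (278 CPM to 615 CPM) were higher, and neither was past 2-fold without its highest cell. Ciita was lower (378 CPM to 143 CPM) and kept the difference, and the MHC II genes had a median log2 ratio of -0.54 without passing 2-fold. Among cytokines, Ccl2 was lower (599 CPM to 42.1 CPM, from 5 UMIs in PFF + VH) and kept the difference. Cxcl2 was higher, but 35 of its 56 UMIs lay in 1 cell, and without it PFF + VH was at 192 CPM against 208 CPM in Monomer.

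Of 5 genes that the study used to describe a macrophage cluster of these samples, 3 were higher in PFF + VH than in Monomer. Over all 1987 genes, 8.35% were higher. The 3 genes, Nav2, Nav3 and Csmd3, kept the difference. Csmd3 stood at 322, 25.2, 354 and 147 CPM in the order of the 4 libraries, so Monomer stood apart, and Nav3 at 125, 50.5, 387 and 125 CPM. Both were also past 2-fold lower in PFF + AZD1480 than in PFF + VH, where 5.65% of 1983 genes were lower. Without the highest cell Nav3 stayed so and Csmd3 did not. All other cells held 2979 to 3892 CPM of Csmd3 and 1678 to 1908 CPM of Nav3. The MG list of the members stood at 3109, 1400, 3655 and 1959 CPM in the order of the 4 libraries. Its part in the values of these genes was not tested.

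From PFF + VH to PFF + AZD1480, which asks what JAK inhibition does after fibrils, 6.3% of 1983 genes were higher and 5.65% lower. Of 30 listed genes past 2-fold, 10 stayed past it without the highest cell. Of 8 interferon-stimulated genes, Isg15, Irf7 and Cxcl10 were higher in PFF + AZD1480 and Ifi27l2a was lower. The higher genes came from few cells, as 23 of the 29 Isg15 UMIs, 27 of the 29 Irf7 UMIs and 32 of the 34 Cxcl10 UMIs in PFF + AZD1480 lay in 1 cell each. Irf7 and Cxcl10 lost the difference without that cell. Of 16 JAK/STAT genes, the receptor chains Il10rb and Il6ra were higher and Stat4 was lower, and Il10rb alone stayed past 2-fold without the highest cell. The log2 ratios of Il6ra and Stat4 were then 0.90 and -0.73.

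Socs3, the feedback inhibitor that STAT3 switches on, stood at 303 CPM in PFF + VH and at 338 CPM in PFF + AZD1480, below 549 CPM in PBS and 473 CPM in Monomer. Pim1, a kinase induced below JAK/STAT, stood at 847 CPM with PBS, 631 with Monomer, 497 with PFF + VH and 666 with PFF + AZD1480, against 77.7 to 95 CPM in the other cells. Jak1 stood at 161 to 252 CPM against 388 to 487 CPM in the other cells, and Jak2 at 101 to 227 CPM against 46.6 to 52.2 CPM. The MHC II genes had a median log2 ratio of 0.30 from PFF + VH to PFF + AZD1480, and none passed 2-fold. Of 10 cytokine genes, Ccl2 (5 UMIs to 140 UMIs) and Ccl3 were higher and Cxcl2 was lower, and Ccl2 alone stayed past 2-fold without the highest cell. The log2 ratios of Ccl3 and Cxcl2 were then 0.71 and -0.69. MG genes again moved with the library, with 4 of 7 lower in PFF + AZD1480, of which Sparc stayed past 2-fold without the highest cell. Siglech, Gpr34 and Olfml3 were then still lower, with log2 ratios of -0.92, -0.88 and -0.88. The border macrophage list went from 219 CPM to 475 CPM, with F13a1 higher (1 UMI to 21 UMIs). The part of these markers in the other values was not tested.

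The effect of AZD1480 could be tested only by hashtag. The test planned for hashtags with at least 5 cDC was not run, because 3 VH hashtags and 1 AZD1480 hashtag met that limit. With a limit of 3 cDC, chosen after the cell numbers were known, 3 VH hashtags (1, 2 and 3, with 9, 7 and 6 cDC) and 3 AZD1480 hashtags (2, 4 and 5, with 4, 9 and 3 cDC) were compared by edgeR's quasi-likelihood test on summed counts. Of 467 genes that passed the filter on low counts, 0 were higher and 0 lower at an adjusted p of 0.05 (0.0% in each direction). At an unadjusted p of 0.05, 24 genes (5.14%) were past the threshold, and DESeq2, run on 10441 genes, also called 0 genes with 50 past that unadjusted threshold. The values of both groups did not overlap for 50 genes (10.7%). None of the genes below passed the threshold, and they are the 5 in each direction with the smallest p.

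Lgals1, the glycan-binding protein galectin-1, stood at 614, 353 and 573 CPM in AZD1480 hashtags 2, 4 and 5 and at 38.1, 67.7 and 123 CPM in VH hashtags 1, 2 and 3. All AZD1480 values were above all VH values, and 10.7% of all genes tested had no overlap between the groups. The log2 difference was 2.71 ± 0.55 (SE, edgeR adjusted p = 0.141). In all other cells of the same hashtags, Lgals1 averaged 52.7 CPM with AZD1480 and 48.6 CPM with VH. Mgl2 stood at 1277, 1245 and 840 CPM with AZD1480 and at 457, 0 and 409 CPM with VH (log2 difference 2.10 ± 0.77, edgeR adjusted p = 0.882). The VH hashtag with 0 was hashtag 2, whose cDC were mostly Xcr1 or Clec9a cells. The histone H2afz (1.32 ± 0.38), the phosphatase Dusp1 (1.17 ± 0.41) and the nucleic acid-binding protein Cnbp (1.31 ± 0.51) had smaller log2 differences, with edgeR adjusted p of 0.581, 0.859 and 0.882.

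The genes on the lower side were led by complement C1q, whose 3 chains are C1qa, C1qb and C1qc. C1qb stood at 442, 320 and 229 CPM in AZD1480 hashtags 2, 4 and 5 and at 1219, 1128 and 1226 CPM in VH hashtags 1, 2 and 3, with a log2 difference of -1.81 ± 0.35 (SE, edgeR adjusted p = 0.141). C1qc had a log2 difference of -1.93 ± 0.46 (edgeR adjusted p = 0.273) and C1qa one of -2.47 ± 0.67 (edgeR adjusted p = 0.495). The values of the groups did not overlap for any of the 3 chains, which were picked by p, nor for 10.7% of all genes tested. MG and macrophages are the usual source of C1q, and C1qb averaged 5060 CPM (AZD1480) and 6367 CPM (VH) in the other cells of these hashtags. The summed MG markers in the cDC were 909, 1127 and 725 CPM with AZD1480 and 3732, 3113 and 1553 CPM with VH, which puts the MG markers in the same order of groups as C1q. Their part in the C1q values was not tested. Malat1, a nuclear RNA, and Immp2l had log2 differences of -0.59 ± 0.18 and -1.61 ± 0.55.

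**Figure D5:**
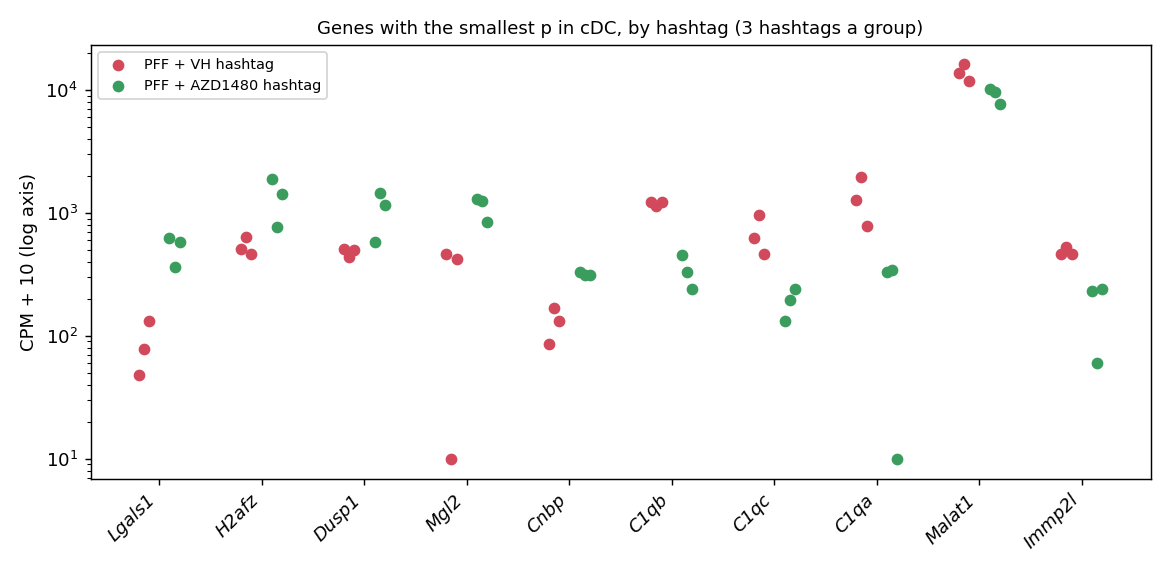
CPM + 10 on a log axis in the summed cDC of each hashtag (3 PFF + VH and 3 PFF + AZD1480 hashtags, 1 point each) for the 5 genes in each direction with the smallest p. Lgals1 lies at 353 to 614 CPM with AZD1480 and 38.1 to 123 CPM with VH, C1qb at 229 to 442 CPM and 1128 to 1226 CPM, and no gene passed the adjusted threshold.

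Few members of the lists on JAK signalling were high enough to test. Of 27 JAK/STAT genes, 4 were tested, all with estimates above 0 and 0 past the threshold, with Socs3 at a log2 difference of 1.09 ± 0.59 and Stat3 at 0.05 ± 0.62. The median log2 difference over all 467 genes was 0.01. The summed list stood at 3466, 2256 and 4004 CPM in VH hashtags 1, 2 and 3 and at 2922, 4171 and 6336 CPM in AZD1480 hashtags 2, 4 and 5. VH hashtag 2, with mostly Xcr1 or Clec9a cells, was lowest here and for the MHC II genes of the rule. The part of this makeup was not tested. Of 25 interferon-stimulated genes, 2 were tested, both below 0 and neither past the threshold. Ifi27l2a stood at 343, 248 and 2452 CPM in the VH hashtags and 73.7, 303 and 76.3 CPM in the AZD1480 hashtags (log2 difference -2.53 ± 0.92, edgeR adjusted p = 0.882), so the groups overlapped and 1 VH hashtag stood apart. Among the 11 MHC class I genes 4 were tested, 3 above 0 and 1 below, and 4 of 10 MHC II pathway genes outside the rule, 2 on each side. Il1b had a log2 difference of 0.70 ± 0.47. The MHC II genes of the rule, given as a description, had log2 differences of 0.38 ± 0.19 (H2-Aa), 0.40 ± 0.19 (H2-Ab1), 0.36 ± 0.18 (H2-Eb1) and 0.15 ± 0.17 (Cd74). Irf8 did not pass the filter on low counts.

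A second test set the same summed counts against the level of each gene in all other cells of the same hashtag, which takes up differences that the whole libraries share. It called 0 of 467 genes, with 26 at an unadjusted p below 0.05 and a smallest edgeR adjusted p of 0.419. The log2 difference relative to other cells was 2.48 for Lgals1, 1.49 for Mgl2 (2.10 without this step), 0.85 for Dusp1 (1.17 without) and -1.64 for C1qb. All 10 named genes, which were picked by p on these same counts, kept their sign. In simulated counts with these genes and hashtags, 97% of genes changed 4-fold and 43% of genes changed 2-fold were recovered, so most 2-fold changes would have been missed. The simulation changed 100 genes at each fold and gave every gene the same dispersion (0.0932). The data need not share these settings, so the recovered percentages may not hold for them. In the data, Lgals1, C1qa and Mgl2 had estimates past 4-fold and were not called.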

How the data were processed

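The deposited files hold UMI counts of each gene in each cell, made by the authors from 10x Genomics 3' libraries with Cell Ranger (7.0.1 in the matrix headers) on mm10. Hashtag counts were deposited for PFF + VH and PFF + AZD1480. The members and gene lists were chosen with earlier results of these data known.

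Cells with 500 to 15000 UMIs, 250 to 5000 genes and at most 10% mitochondrial UMIs were kept. No doublet caller was run, and cells with more than 1 hashtag (HTODemux, Seurat 5.3.0, positive quantile 0.99) were left out of hashtag tests. Counts were summed per library or hashtag and divided by the total (CPM), and 10 CPM was added before a ratio of CPM. Genes were tested with edgeR 4.0.16 (quasi-likelihood, TMM, filterByExpr, Benjamini-Hochberg, threshold 0.05), with DESeq2 1.42.0 as an alternative, in R 4.3.3. The second test used the log level in other cells as an offset, with at least 10 counts there. Shares were compared by exact permutation (scipy 1.17.1). A share of 0 was given the limit of 3 counts. Named genes were the rule genes and markers, members of the gene lists, the 5 with the smallest p in each direction, the 15 leading genes, and 10 per direction between both kinds of cDC, of which an item is not reported here. Single genes seen to rest on 1 cell, and others given as examples, were chosen after their values were seen. Leaving out the cell with most UMIs of a gene, and the limit of 3 cDC per hashtag, were chosen after seeing the data. Alternatives covered the rule, depth, hashtag calls, each hashtag left out, scaling and filters. The lists beyond those in the results (maturation and cell cycle genes, neutrophil markers) are given under other observations.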

Additional observations from a re-analysis of the deposited data

How the results depend on the processing

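The 0 genes called between AZD1480 and VH stayed at 0 in 16 of 17 alternatives. Without a filter on low counts, 10 of 10441 genes were called, of which C1qa, Plac8, Cxcl2, Ifi27l2a and Ly6c2 were lower and Mgl2, Ccl2, Fn1, Lgals1 and Dcstamp higher. Several of them rested largely on 1 cell. Among all PFF + AZD1480 members, 1 cell held all 26 Fn1 UMIs, and 1 held 72 of the 140 Ccl2 UMIs. Among all PFF + VH members, 1 cell held all 25 Ly6c2 UMIs, 1 held 23 of 36 for Plac8, and 1 held 35 of 56 for Cxcl2. Mgl2 was spread wider, with 29 of 160 PFF + AZD1480 UMIs in its highest cell. Relative to other cells, 4 genes were called without VH replicate 3 (Nav3 lower, and H2-Aa, H2-Ab1 and H2-Eb1 higher, which the selection of the cells used and which are no finding). Leaving out 1 hashtag gave 0 to 0 genes in the first test and 0 to 4 in the second. For the 10 named genes, 145 of 148 alternatives kept the direction and the side of the threshold, and Lgals1, Mgl2 and C1qa passed it without the filter. Alternatives in which a gene was not tested are not counted. The genes were picked by p, and the alternatives used largely the same cells, so a kept direction is no independent support. The cause of these changes was not tested.

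The difference in the share of cDC (-0.0029 percentage points, AZD1480 minus VH) had no stable sign. It was 0.0139 with at least 3 UMIs of the dendritic cell genes, 0.00823 with cells thinned to 1000 UMIs, 0.0242 with MULTIseqDemux, 0.00789 with hashtag values centred within cells, and -0.0444 to 0.0316 when 1 hashtag was left out (0.0166 and 0.0120 without VH replicates 1 and 2, 0.0316 without AZD1480 replicate 1 or 3). With the hashtag number as a replicate block it was -0.0247 (exact permutation p = 0.875), and equal numbers are not stated to mark shared samples. The difference in the Xcr1 or Clec9a share ran from -35.4 to 7.41 points when 1 hashtag was left out, and was 7.41 without VH replicate 2, -1.06 with cDC thinned to 1000 UMIs, -5.14 with hashtag values centred within cells and -39.5 with MULTIseqDemux. Thinned to 1000 UMIs, the shares of cDC fell to 0.0720% (PBS), 0.0714% (Monomer), 0.0518% (PFF + VH) and 0.0958% (PFF + AZD1480), by construction since fewer marker UMIs remain. No paired analysis was possible for the gene tests because the tested hashtags of both groups share only the number 2. The limit of 10 cDC per hashtag left no hashtag. In simulated counts of this size, 43% of 2-fold and 97% of 4-fold changes were recovered. These used the same dispersion for all genes and 100 genes changed at each fold, which the data need not share.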

Other observations

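The 14 maturation genes outside the rule summed to 971 to 1170 CPM in the members, against 3950 CPM in the migratory dendritic cells and 2610 to 2733 CPM in all other cells, and Tmem123 alone of 4 compared was lower in the Xcr1 or Clec9a cells in all 4 libraries. The 15 cell cycle genes summed to 119 CPM with PBS, 139 with Monomer, 101 with PFF + VH and 447 with PFF + AZD1480. In the latter, 62 of the 82 UMIs lay in 1 cell, and without it the sum was 116 CPM. Neutrophil markers summed to 31.5 to 98.2 CPM, with Retnlg and Ly6g at 0.

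Several further genes that differed between libraries rested on 1 or a few cells. All 25 Ly6c2 UMIs of PFF + VH, a marker of classical monocytes, lay in 1 cell. In PBS, 71 Plac8 UMIs lay in 1 cell, and 15 of the 16 Cxcl9 UMIs of the members were in 1 PBS cell. Cd7 had 20 UMIs in PFF + VH, at most 7 of them in 1 cell, and 1 UMI in PFF + AZD1480 and 0 in the other libraries.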
